A study of Mus musculus with 8 samples.

Results

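The major histocompatibility complex (MHC) and antigen presentation genes were examined in polyA RNA from Ba/F3 cells, a mouse line labelled as immortalised pro-B cells on a C3H strain background. Members were the rows of the count table whose GRCm38 symbol starts with H2- and 9 genes added by name (Cd74, Ciita, Nlrc5, B2m, Tap1, Tap2, Tapbp, Psmb8 and Psmb9). This rule gave 54 of the 53465 genes, 45 of them by the H2- prefix, and 50 of the 54 lie on chromosome 17. The transformed group was Ba/F3 carrying U2AF35(S34F), with 5 libraries numbered 4 to 8. The parental group was Ba/F3 with U2AF35-WT, with 3 libraries numbered 1 to 3. Both groups share the cell line and strain, and the labels name no other allele, agent or time. U2AF35 is the small subunit of the splicing factor that recognises the 3′ splice site, and S34F is a mutant form found in myeloid disorders and lung cancer. The labels do not say how the S34F form was delivered, whether a library is a clone, or whether separate cultures stand behind the libraries of a group. P-values therefore measure only the spread between these libraries, which may be technical.

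Class I molecules present peptides from the cell's own proteins on nearly all nucleated cells, as a heavy chain paired with beta-2-microglobulin. The peptides are cut by the proteasome, including the immunoproteasome subunits Psmb8 and Psmb9, carried into the endoplasmic reticulum by Tap1 and Tap2, and loaded with the help of tapasin (Tapbp). Class II molecules present peptides from the endocytic route on professional antigen-presenting cells, B cells among them, and need the invariant chain Cd74 and the DM editor. Nlrc5 is the transactivator of class I genes and Ciita that of class II genes. Both act through factors bound to conserved promoter boxes, beside which class I promoters carry sites for NF-kB and for interferon regulatory factors.

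Library totals lay between 36122062 counts (transformed 7) and 50305573 counts (parental 1), and members took between 0.163% and 0.235% of a library's counts. Levels are given as CPM, counts scaled to library size and TMM factors. A gene with 0 counts could hold up to 3, which is 0.0586 to 0.0857 CPM in a library and 0.00802 CPM over all 8, for counting error only. The labelled cell type was checked against its markers. Of 14 early B lineage markers, Cd79a (43.2 to 55.5 CPM in transformed cells, 51.3 to 59.6 CPM in parental cells) and Cd79b passed 1 CPM, and the other 12 stayed under 1 CPM in all 8 libraries. Rag1 and Il7r had 0 counts in all 8, and Pax5 and Ebf1 were at 0 to 0.044 CPM. The label pro-B therefore rests on few of these markers in the RNA, and the cells are called Ba/F3 below.

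RNA for each step of the class I route was present, while RNA of the class II presenting chains was at or near 0. The 30 members at 1 CPM or more in all 8 libraries were the classical class I genes, B2m, H2-K2, most Q and T region genes, H2-M3, the 5 peptide supply genes, Nlrc5, Cd74 and the DM and DO genes of class II. The mean levels of H2-K1 and H2-D1 in transformed cells were 1.32 and 1.26 times those in parental cells. For these and 8 of their relatives every transformed library lay above every parental one, as in 8.07% of all tested genes. The rows of these relatives may share reads. Tap1 and Tap2 lay on the other side, as did 9.69% of all tested genes. None of these differences passed the test across all genes. Among the tested members Cd74 differed most (log2 fold change 3.09, and 2.08 without transformed 7), and it too missed the threshold with all libraries.

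The promoters of the genes on which these values turn are printed from the RefSeq windows (GRCm38.p6), which run from 250 bases before to 50 bases after each start, 5′ to 3′ on the gene's strand. H2-K1 and H2-D1 are the classical class I heavy chains, H2-Q6 is the relative with the smallest p, and B2m is their light chain. Tap1 stands for a gene on the other side, and H2-Aa for a class II gene without counts. They were chosen after their values were seen. Capitals mark matches, on either strand, to AANNGAAA (core of the interferon regulatory factor element), GGGGATTCC and GGGACTTTC (NF-kB motifs), ATTGG (core of the Y box) and TGACG (part of the cyclic AMP response element, as in the X2 box). Matches to different motifs do not overlap in these windows, and TGACG meets its own reverse complement in H2-Aa.
H2-K1 (chr17:34000298-34000597, minus strand): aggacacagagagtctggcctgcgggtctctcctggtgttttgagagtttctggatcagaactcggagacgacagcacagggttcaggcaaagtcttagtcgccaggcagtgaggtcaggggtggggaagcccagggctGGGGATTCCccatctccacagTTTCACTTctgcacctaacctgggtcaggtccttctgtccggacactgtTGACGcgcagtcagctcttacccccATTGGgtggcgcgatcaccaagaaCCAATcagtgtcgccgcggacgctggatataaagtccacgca
H2-D1 (chr17:35262844-35263143, plus strand): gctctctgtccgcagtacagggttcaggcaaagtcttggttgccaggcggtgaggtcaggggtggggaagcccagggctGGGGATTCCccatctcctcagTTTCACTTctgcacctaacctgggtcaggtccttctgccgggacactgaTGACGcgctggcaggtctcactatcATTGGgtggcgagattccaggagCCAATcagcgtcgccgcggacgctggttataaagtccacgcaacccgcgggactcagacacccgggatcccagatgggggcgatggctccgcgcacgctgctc
H2-Q6 (chr17:35424600-35424899, plus strand): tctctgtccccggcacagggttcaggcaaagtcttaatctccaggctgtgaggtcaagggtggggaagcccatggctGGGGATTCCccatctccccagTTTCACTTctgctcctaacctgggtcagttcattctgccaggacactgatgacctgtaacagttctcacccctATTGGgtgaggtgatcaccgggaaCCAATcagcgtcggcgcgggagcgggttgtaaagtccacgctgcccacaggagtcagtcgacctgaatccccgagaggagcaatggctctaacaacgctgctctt
B2m (chr2:122147437-122147736, plus strand): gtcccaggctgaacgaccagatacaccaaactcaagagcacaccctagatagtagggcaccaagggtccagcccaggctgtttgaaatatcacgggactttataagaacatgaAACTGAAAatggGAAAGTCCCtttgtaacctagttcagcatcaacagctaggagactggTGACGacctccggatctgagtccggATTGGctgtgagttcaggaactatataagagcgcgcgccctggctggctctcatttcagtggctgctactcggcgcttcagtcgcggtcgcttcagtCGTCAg
Tap1 (chr17:34187306-34187605, plus strand): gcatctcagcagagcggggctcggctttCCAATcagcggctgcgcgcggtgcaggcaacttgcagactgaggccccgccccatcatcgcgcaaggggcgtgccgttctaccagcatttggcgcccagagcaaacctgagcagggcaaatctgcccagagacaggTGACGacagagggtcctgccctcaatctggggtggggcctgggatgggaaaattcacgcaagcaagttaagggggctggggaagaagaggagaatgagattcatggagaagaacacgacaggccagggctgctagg
H2-Aa (chr17:34287774-34288073, minus strand): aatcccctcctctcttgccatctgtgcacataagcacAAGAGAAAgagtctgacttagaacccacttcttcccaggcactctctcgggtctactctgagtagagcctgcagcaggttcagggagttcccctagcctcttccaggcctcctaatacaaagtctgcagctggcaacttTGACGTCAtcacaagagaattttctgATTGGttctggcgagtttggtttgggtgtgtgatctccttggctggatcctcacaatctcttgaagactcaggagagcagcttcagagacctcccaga

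Windows were found for 37 of the 54 members, 40 windows in all, among 32851 windows of the same length. GGGGATTCC was in 5 of the 40, those of H2-K1 (in both of its windows), H2-D1, H2-Q6 and H2-Q7, and in 0.25% of all windows. It began 171 bases before the start in H2-D1 (-171), at -173 in H2-Q6, at -133 in H2-Q7 and at -111 in the printed window of H2-K1. These 4 genes also had the 4 smallest p among the members, but they are relatives whose rows may share reads. The windows of H2-Q2, H2-Q10 and H2-Q4 held no GGGGATTCC. For H2-Q2 and H2-Q10 every transformed library also lay above every parental one (log2 fold changes 0.36 and 0.26). For H2-Q4 the groups overlapped (0.22). Cd74, H2-Q1 and H2-K2 were among the members without a window. Whether the motif has a part in the differences was not tested. GGGACTTTC was in 1 member window, that of B2m, and in 0.353% of all. AANNGAAA was in 22 of the 40 (23.9% of all windows), ATTGG in 35 (37.4%) and TGACG in 16 (20.8%). Class I genes are related by descent, so their windows are not independent. A match describes letters of the reference and not a binding site. In the Tap1 window only ATTGG and TGACG matched.

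Of the 54 members, 34 had enough counts to be tested among 17733 genes, and 20 did not, the highest count of any of those in a library being 12. In all 8 libraries 8 members had 0 counts. In edgeR's quasi-likelihood test with Benjamini-Hochberg adjustment at 0.05, 0 of the 34 members were higher and 0 were lower in transformed cells, where 3.01% of all tested genes were called. At an unadjusted p under 0.05 there were 13 of 34 (38.2%), 10 higher and 3 lower, against 22.2% of all tested genes. limma-voom also called 0. DESeq2 called 7 members higher (H2-D1, H2-K1, H2-K2, H2-Q1, H2-Q2, H2-Q6 and H2-Q7; background 4.54%) and 0 lower, and gave Cd74 no adjusted p. The median log2 fold change, transformed over parental, was 0.17 over the 34 members and 0.017 over all tested genes. It was -0.0091 over the genes of chromosome 17. In 11 of 34 members (32.4%) every transformed library lay above every parental one, against 8.07% of all tested genes. In 3 of 34 (8.82%) every one lay below, against 9.69%. Of the 11, 2 were classical and 8 non-classical class I genes. Class I rows are related and may share reads, so members are not independent in these counts.

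Leaving out transformed 4 brought 5 members past the threshold as higher (Cd74, H2-D1, H2-K1, H2-Q6 and H2-Q7; background 6.25%) and 2 as lower (H2-Oa and H2-Pa; background 9.26%). Leaving out transformed 7 gave 4 as higher (Cd74, H2-K1, H2-Q6 and H2-Q7; background 2.87%). The labels place 2 transformed and 2 parental libraries in lane 6 and 3 transformed and 1 parental library in lane 7. Within lane 6, 3 were higher (H2-D1, H2-K1 and H2-Q6; background 9.6%) and 1 lower (H2-Oa; background 10.8%). Within lane 7, with 1 parental library that is assumed to vary like the others, 0 were called. In lane 7 the edgeR adjusted p reached 0.9996 for every member.

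**Figure D1:**
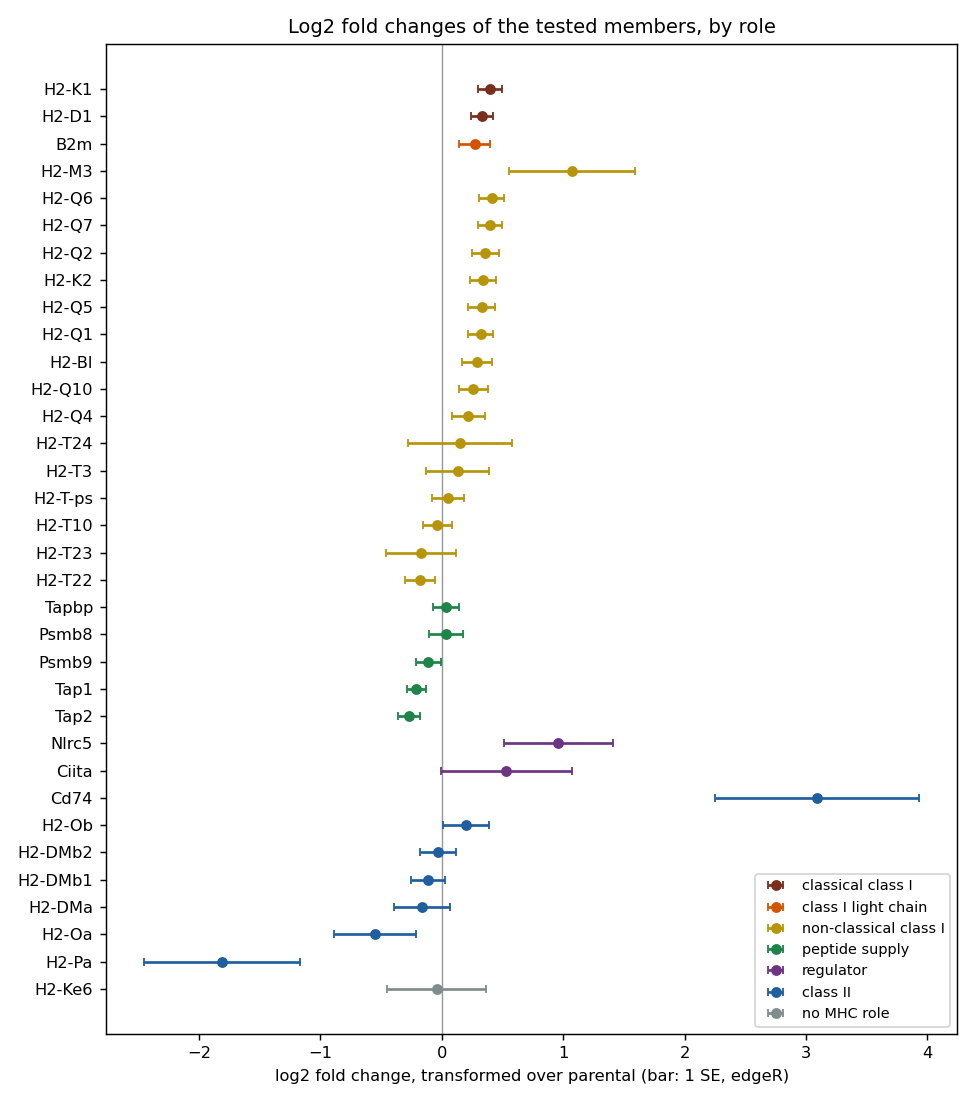
Log2 fold change of the 34 tested members (horizontal axis, transformed over parental, edgeR), grouped by role down the page, each with a bar of 1 standard error. Cd74 at 3.09 and H2-Pa at -1.81 lie farthest from 0, and H2-K1, H2-D1 and the Q region genes sit together between 0.22 and 0.41 with short bars.

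H2-K1 and H2-D1 encode the heavy chains of the classical class I molecules. H2-K1 (chromosome 17, 33996017 to 34000347) had 187, 198, 197, 220 and 198 CPM in transformed 4 to 8, against 133, 156 and 166 CPM in parental 1 to 3. Its groups did not overlap, and the lowest value was that of parental 1. The means were 200 ± 12.1 CPM in transformed cells (SD, n = 5) and 152 ± 16.6 CPM in parental cells (SD, n = 3). The log2 fold change was 0.40 (SE 0.10, edgeR adjusted p = 0.0589). H2-D1 (chromosome 17, 35262730 to 35267499) had 273, 294, 260, 310 and 278 CPM in transformed cells, against 206, 228 and 240 CPM in parental cells. All 5 transformed values were again above all 3 parental ones (log2 fold change 0.33 with SE 0.091, edgeR adjusted p = 0.0781). Within lane 6, 2 transformed and 2 parental libraries were compared, and 9.6% of all tested genes were called higher. There both genes passed, at 0.42 for H2-K1 (edgeR adjusted p = 0.0422) and 0.37 for H2-D1 (edgeR adjusted p = 0.0376). Within lane 7 their log2 fold changes were 0.36 and 0.30, without a call.

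B2m, the light chain shared by all class I molecules (chromosome 2, 122147686 to 122153083), had 477, 472, 467, 618 and 522 CPM in transformed cells, against 371, 413 and 488 CPM in parental cells. The groups overlapped, since parental 3 lay above transformed 4, 5 and 6, and transformed 7 was the highest library. The log2 fold change of 0.27 (SE 0.13) did not pass (edgeR adjusted p = 0.253), in a chromosome whose tested genes had a median of -0.15.

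**Figure D2:**
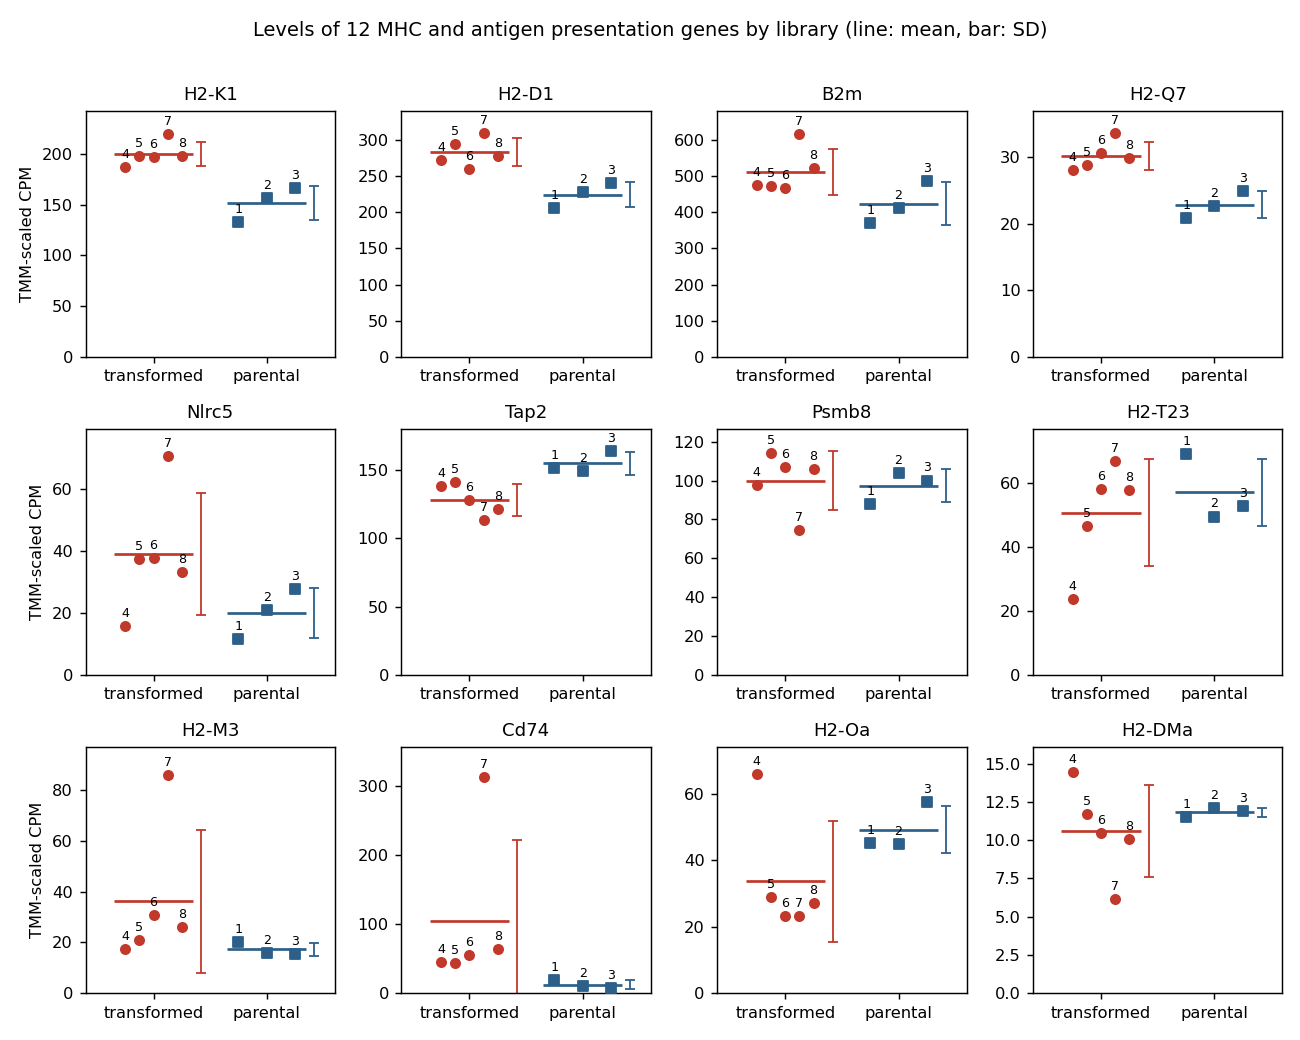
TMM-scaled CPM (vertical axes, linear from 0) of 12 genes in the 5 transformed libraries (circles, left) and the 3 parental libraries (squares, right), numbered as in the labels, with the mean as a line and the SD as a bar beside it. Every transformed point lies above every parental one for H2-K1, H2-D1, H2-Q7 and Cd74 and below for Tap2, transformed 7 is the highest library for Nlrc5, H2-M3 and Cd74, and transformed 4 the lowest for H2-T23 and the highest for H2-Oa. The lower end of the transformed bar of Cd74 (104 ± 118 CPM) is cut off at 0.

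Of the 30 non-classical class I members, which include pseudogenes, 16 were tested and 0 passed. A positive log2 fold change was found for 13 and a negative one for 3. Of the 16, 8 had every transformed library above every parental one, against 8.07% of all tested genes. In 1 every one lay below, against 9.69%. These rows are related and may share reads, so the 8 are not independent. Those 8 were H2-K2, H2-Bl, H2-Q1, H2-Q2, H2-Q5, H2-Q6, H2-Q7 and H2-Q10. H2-Q6 and H2-Q7 belong to the genes that encode Qa-2 antigens in strains that make them. H2-Q6 (chromosome 17, 35424850 to 35430055) had 21.5, 22, 21.8, 24.2 and 22 CPM in transformed cells, against 14.7, 17.6 and 17.9 CPM in parental cells. The transformed values lay close together and well above the parental ones (log2 fold change 0.41 with SE 0.10, edgeR adjusted p = 0.0624). H2-Q7 had 28.1, 28.9, 30.6, 33.6 and 29.9 CPM in transformed cells, against 20.9, 22.7 and 25 CPM in parental cells (log2 fold change 0.40 with SE 0.10, edgeR adjusted p = 0.0667). The other Q region genes, H2-K2 and H2-Bl had log2 fold changes between 0.22 (H2-Q4) and 0.36 (H2-Q2). H2-Q10, known as a class I molecule secreted by the liver, was at 10.4 to 12.7 CPM in transformed cells and 8.37 to 10.2 CPM in parental cells.

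The values of these relatives cannot be separated fully from each other or from those of H2-K1 and H2-D1. Of all 50-base stretches of the annotated transcripts of H2-Q5, 36.4% also occur in another gene, as do 32% of those of H2-Q6. The share was 26.4% for H2-Q7, 19% for H2-Q10, 12.8% for H2-D1 and 9.63% for H2-K1. H2-Q10 shared 14% of its stretches with H2-Q7, so its counts may come in part from relatives. With H2-K1 or H2-D1 themselves the share was smaller, at 7.13% for H2-Q5, 5.45% for H2-Q6 and 4.53% for H2-Q7. Both shares were 0% for B2m, Cd74 and Nlrc5. The C3H strain carries an MHC haplotype other than that of the C57BL/6J reference, and its Q region differs in gene content between strains. The treatment of reads with several matches belongs to the settings not given in the sources used here. Set against the summed counts of H2-K1 and H2-D1, H2-Q6 was at 4.48% to 4.77% in transformed libraries and 4.33% to 4.58% in parental ones. The highest of the 8 values was only 1.1 times the lowest for H2-Q6 and H2-Q5, and 1.11 times for H2-Q1 and H2-Bl. It was 1.13 times for H2-Q2, 1.14 for H2-Q7, 1.22 for H2-Q10, 1.23 for H2-K2 and 1.39 for H2-Q4. Whether their differences are their own was not tested.

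**Figure D3:**
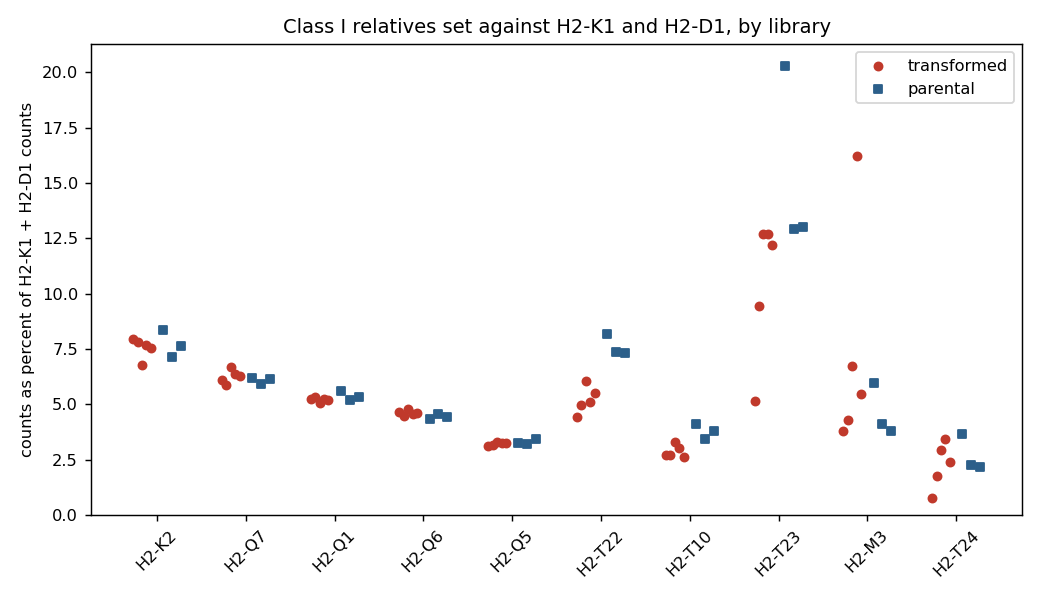
Counts of 10 class I relatives as a percentage of the summed H2-K1 and H2-D1 counts (vertical axis) in the 5 transformed libraries (circles) and the 3 parental libraries (squares). H2-Q6 stays between 4.33% and 4.77% in all 8 libraries, H2-T22 lies lower in every transformed library (4.41% to 6.03%) than in every parental one (7.33% to 8.18%), and H2-M3 reaches 16.2% in transformed 7.

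H2-T23 encodes Qa-1, which shows leader peptides of other class I molecules to an inhibitory receptor of natural killer cells. It had 23.6, 46.6, 58.2, 67.0 and 57.9 CPM in transformed cells, against 68.9, 49.5 and 52.7 CPM in parental cells. Transformed 4 was far below the rest and parental 1 was the highest, and the groups overlapped (log2 fold change -0.17 with SE 0.29, edgeR adjusted p = 0.777). H2-T24 had the same low library, at 3.54 CPM in transformed 4 and 8.77 to 18.3 CPM in the other transformed libraries, against 8.71 to 12.4 CPM in parental cells. H2-T22, a ligand of some gamma delta T cells, was at 20.3 to 27.6 CPM in transformed cells and 27.7 to 29.7 CPM in parental cells. Its groups did not overlap, but by a narrow margin (log2 fold change -0.18, edgeR adjusted p = 0.385). Its close relative H2-T10, with which it shares 31.2% of its stretches, had a log2 fold change of -0.038. The pseudogene H2-T-ps was at 5.74 to 7.86 CPM in transformed cells and 6.36 to 6.92 CPM in parental cells. H2-T3, the thymus leukemia antigen, reached at most 0.357 CPM, in transformed 5.

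H2-M3 presents peptides that start with formylmethionine, as bacterial and mitochondrial proteins do. It had 17.4, 21, 30.7, 86.0 and 26 CPM in transformed cells, against 20.2, 15.8 and 15.5 CPM in parental cells. Transformed 7 stood far above the other 7 libraries, and transformed 4 lay below parental 1. The log2 fold change of 1.07 (SE 0.52, edgeR adjusted p = 0.266) was 0.47 at the lowest and 1.25 at the highest with a library left out. The H2-M1, H2-M2, H2-M9 and H2-M10 genes (H2-M10.1 to H2-M10.6 and H2-M10.5-ps1), the last known from vomeronasal neurons, reached at most 0.286 CPM. H2-M10.6 had 7, 4, 3, 10 and 5 counts in transformed 4 to 8, against 2, 0 and 0 counts in parental 1 to 3, and was not tested. The other members without a test were H2-M5 (at most 0.343 CPM), H2-M6-ps (0.2 CPM), H2-Pb (0.141 CPM), H2-Q3 (0.0808 CPM) and H2-M11 (0.0211 CPM), each given by its highest library, beside the class II genes described below.

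The 5 peptide supply genes were all well expressed, and 0 passed. Tap1 and Tap2 form the transporter that carries peptides into the endoplasmic reticulum. Tap1 had 79.1, 82.8, 81.0, 79.1 and 74.9 CPM in transformed cells, against 88.2, 88.3 and 98.9 CPM in parental cells (log2 fold change -0.21 with SE 0.078, edgeR adjusted p = 0.162). Tap2 had 138, 141, 128, 113 and 121 CPM in transformed cells, against 151, 149 and 164 CPM in parental cells (log2 fold change -0.27 with SE 0.094, edgeR adjusted p = 0.142). In both genes every transformed library lay below every parental one, as in 9.69% of all tested genes. Tapbp, the tapasin that holds class I at the transporter, had 96.0, 87.3, 95.2, 74.3 and 84.2 CPM in transformed cells, against 92.5, 79.5 and 84.1 CPM in parental cells. Its ranges overlapped widely (log2 fold change 0.034, edgeR adjusted p = 0.884).

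Psmb8 and Psmb9 are the catalytic subunits that replace their standard counterparts in the immunoproteasome. Psmb8 had 97.7, 114, 107, 74.6 and 106 CPM in transformed cells, against 87.8, 104 and 100 CPM in parental cells. Transformed 7 was the lowest of the 8 libraries for Psmb8, in contrast to H2-K1, H2-D1 and B2m, where it was the highest (log2 fold change 0.034, edgeR adjusted p = 0.912). Psmb9 had 44.5, 54.4, 48.4, 45.6 and 51.6 CPM in transformed cells, against 49.0, 51.7 and 57.1 CPM in parental cells (log2 fold change -0.11, edgeR adjusted p = 0.574). Psmb9 and Tap1 overlap at their starts on opposite strands, and the strand setting belongs to those not given in the sources used here, so reads from that stretch cannot be told apart.

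Nlrc5, the class I transactivator (chromosome 8, 94434356 to 94527272), had 15.9, 37.5, 37.9, 70.6 and 33.3 CPM in transformed cells, against 11.5, 20.9 and 27.6 CPM in parental cells. Transformed 5 to 8 lay above all 3 parental libraries, and transformed 4 lay between parental 1 and parental 2. The means were 39.0 ± 19.8 CPM in transformed cells (SD, n = 5) and 20 ± 8.07 CPM in parental cells (SD, n = 3), and the difference did not pass (log2 fold change 0.96 with SE 0.45, edgeR adjusted p = 0.252). Transformed 7 was the highest library for Nlrc5, H2-K1, H2-D1, B2m and H2-M3. It was the lowest library for Tap2 (113 CPM), Tapbp (74.3 CPM) and Psmb8 (74.6 CPM). Among the transformed libraries it was the highest for 31.9% of all tested genes. The part of Nlrc5 in the class I values was not tested. Ciita, the class II transactivator (chromosome 16), had 0.263, 0.139, 0.198, 0.400 and 0.169 CPM in transformed cells, against 0.0391, 0.240 and 0.197 CPM in parental cells. These are 7 to 14 counts in transformed and 2 to 12 counts in parental libraries, close to the limit of 3 counts (log2 fold change 0.53 with SE 0.54, edgeR adjusted p = 0.6).

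RNA of the class II presenting chains was at or near 0 as counted on the reference annotation, and protein was not measured. H2-Aa, H2-Ab1, H2-Eb2 and H2-Ea-ps had 0 counts in transformed 4 to 8 and 0 counts in parental 1 to 3, which allows up to 0.00802 CPM over the 8 libraries together. H2-Eb1 had 8 counts in all 8 libraries together, at 0, 0, 0.022, 0.0286 and 0 CPM in transformed cells, against 0.0782, 0.0200 and 0.0219 CPM in parental cells. The E alpha gene is inactive in the reference strain and active in other haplotypes, and its row carries the reference's pseudogene name.

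Cd74 is the invariant chain that guides class II molecules and also a receptor part for the cytokine MIF. It was expressed where RNA of the class II presenting chains was at or near 0. It had 44.8, 43.6, 54.6, 314 and 63.3 CPM in transformed cells, against 18.8, 10.4 and 7.41 CPM in parental cells. All 5 transformed libraries lay above all 3 parental ones, and transformed 7 stood far above the other 4. The log2 fold change was 3.09 (SE 0.84, edgeR adjusted p = 0.0835). It was 2.04 within lane 6 (edgeR adjusted p = 0.106) and 3.72 within lane 7. Without transformed 7 it was smaller, at 2.08, and passed the edgeR threshold, as it also did without transformed 4, at 3.28. With each library left out in turn it lay between 2.08 and 3.55. In bulk RNA more cells of a type and more RNA per cell cannot be told apart.

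Markers of other antigen-presenting cells stand beside these Cd74 values. Of 14 dendritic cell and macrophage markers, 12 were under 1 CPM in all 8 libraries, with C1qa, C1qc and Marco among those at 0. Their summed level was 56.8, 184, 247, 413 and 277 CPM in transformed cells, against 343, 268 and 241 CPM in parental cells, nearly all of it from Adgre1. Adgre1 (F4/80) had 48.4, 176, 238, 404 and 269 CPM in transformed cells, against 332, 256 and 230 CPM in parental cells, and Cd68 fell in transformed cells (log2 fold change -0.46, edgeR adjusted p = 0.0484). Of 7 mature B cell markers, 6 were under 1 CPM in all 8 libraries, with Ms4a1, Ighd and Cd38 at 0, and their sum was 0.867 to 2.09 CPM in transformed and 1.18 to 1.36 CPM in parental libraries. The 8 T cell markers summed to 1.19 to 4.17 CPM in transformed and 0.799 to 1.64 CPM in parental libraries, with Cd8a at 0 in all 8. The 8 fibroblast and stroma markers summed to 0.0198 to 0.424 CPM in transformed and 0.117 to 0.200 CPM in parental libraries. The part of these markers in the Cd74 values was not tested.

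The class II accessory genes were present at low to moderate levels, and 0 passed. DM removes the invariant chain remnant and edits the peptide, and DO restrains DM. H2-DMa had 14.5, 11.7, 10.5, 6.17 and 10.1 CPM in transformed cells, against 11.5, 12.1 and 11.9 CPM in parental cells. The transformed values surrounded the parental ones, with transformed 7 the lowest, so H2-DMa and Cd74 were at opposite ends in that library (log2 fold change -0.16, edgeR adjusted p = 0.734). H2-DMb1 and H2-DMb2, the other chain of DM, had -0.11 and -0.033, and 22.7% and 21.2% of their stretches are shared with each other. H2-Oa, a chain of DO, had 66.1, 28.8, 23.3, 23.3 and 27.1 CPM in transformed cells, against 45.2, 45 and 57.5 CPM in parental cells. Transformed 4 was the highest of all 8 libraries, and the other 4 transformed libraries were below all parental ones. The log2 fold change of -0.55 (SE 0.34) did not pass with all libraries (edgeR adjusted p = 0.386). Without transformed 4 it was -0.94 (edgeR adjusted p = 0.00487), and within lane 6, which holds neither transformed 4 nor transformed 7, -0.87 (edgeR adjusted p = 0.00855). Those fits called 9.26% and 10.8% of all tested genes lower. H2-Ob, the partner chain, had 0.20 (edgeR adjusted p = 0.587).

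The pseudogene H2-Pa, upstream of H2-Oa, stayed under 1 CPM in all 8 libraries, at 0 to 0.424 CPM in transformed cells and 0.371 to 0.879 CPM in parental cells (log2 fold change -1.81 with SE 0.64, edgeR adjusted p = 0.142). It passed as lower without transformed 4 (edgeR adjusted p = 0.0317). H2-Ke6 carries the prefix from its place in the region and encodes a hydroxysteroid dehydrogenase with no role in presentation. It was at 0.182 to 0.675 CPM in transformed cells and 0.420 to 0.469 CPM in parental cells, and 70.5% of its stretches are shared with the readthrough gene Gm20427.

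**Figure D4:**
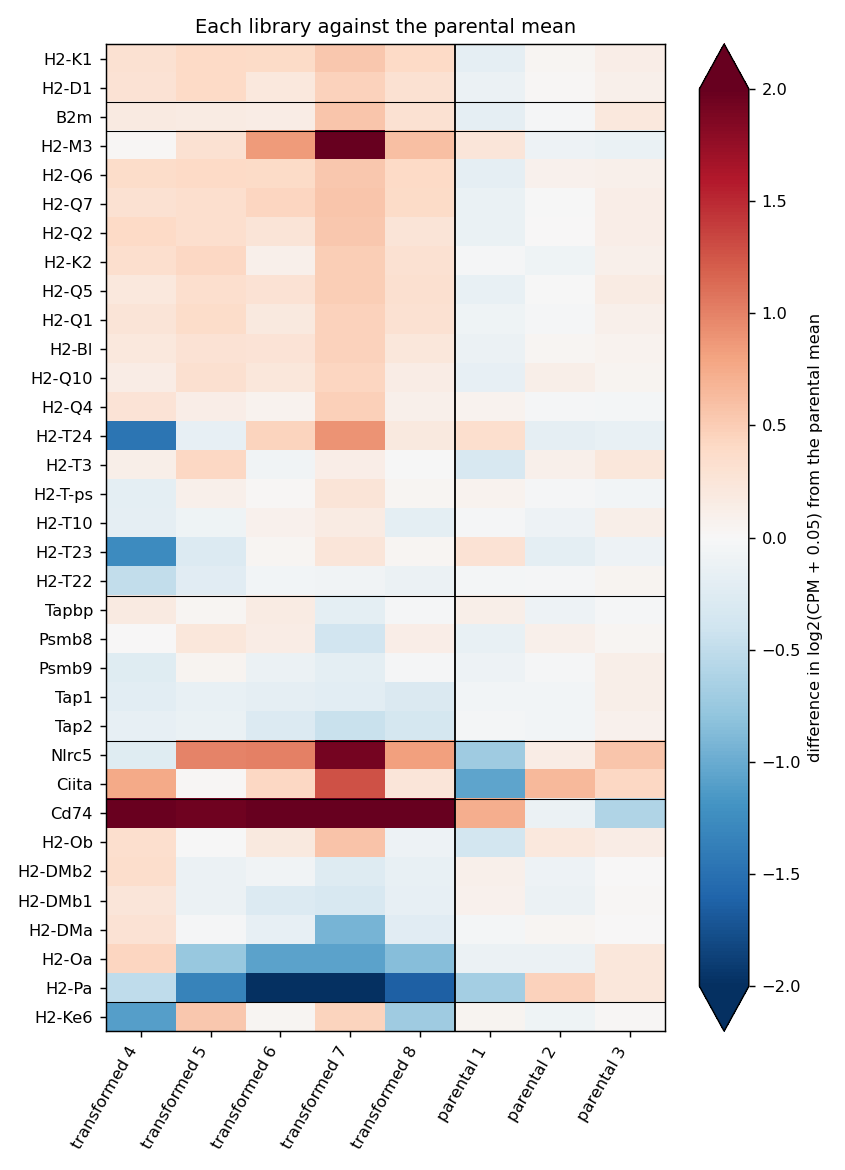
Difference in log2(CPM + 0.05) of each library (columns, transformed left of parental) from the parental mean for the 34 tested members (rows, by role), with the colour scale ending at 2 in each direction. The classical and Q region rows are above the parental mean in all 5 transformed libraries. Transformed 4 departs for H2-T23, H2-T24 and H2-Oa, and transformed 7 for H2-M3, Nlrc5 and H2-DMa.

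Levels between genes were compared per kilobase of annotated exons, which sets the scale of the next values. B2m was first, at 595 CPM per kb in transformed cells and 493 CPM per kb in parental cells. H2-D1 followed at 110 and H2-K1 at 68.0 CPM per kb in transformed cells, against 87.1 and 51.7 CPM per kb in parental cells. Cd74 averaged 62.0 CPM per kb in transformed cells, a mean set by transformed 7 within a range of 26 to 187 CPM per kb, against 7.26 CPM per kb in parental cells, where it lay below H2-Q5 and above H2-Q1. Below these the levels lay close together. Tap2 was at 33.9, Psmb8 at 29.5, H2-M3 at 25.2, Tapbp at 24.1, H2-Oa at 24 and H2-T23 at 17.5 CPM per kb in transformed cells. The same genes were at 40.8, 28.8, 12, 23.5, 35 and 19.7 CPM per kb in parental cells. Nlrc5 was at 4.6 CPM per kb in transformed and 2.36 CPM per kb in parental cells, and Ciita at 0.0245 CPM per kb in transformed and 0.0166 CPM per kb in parental cells.

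**Figure D5:**
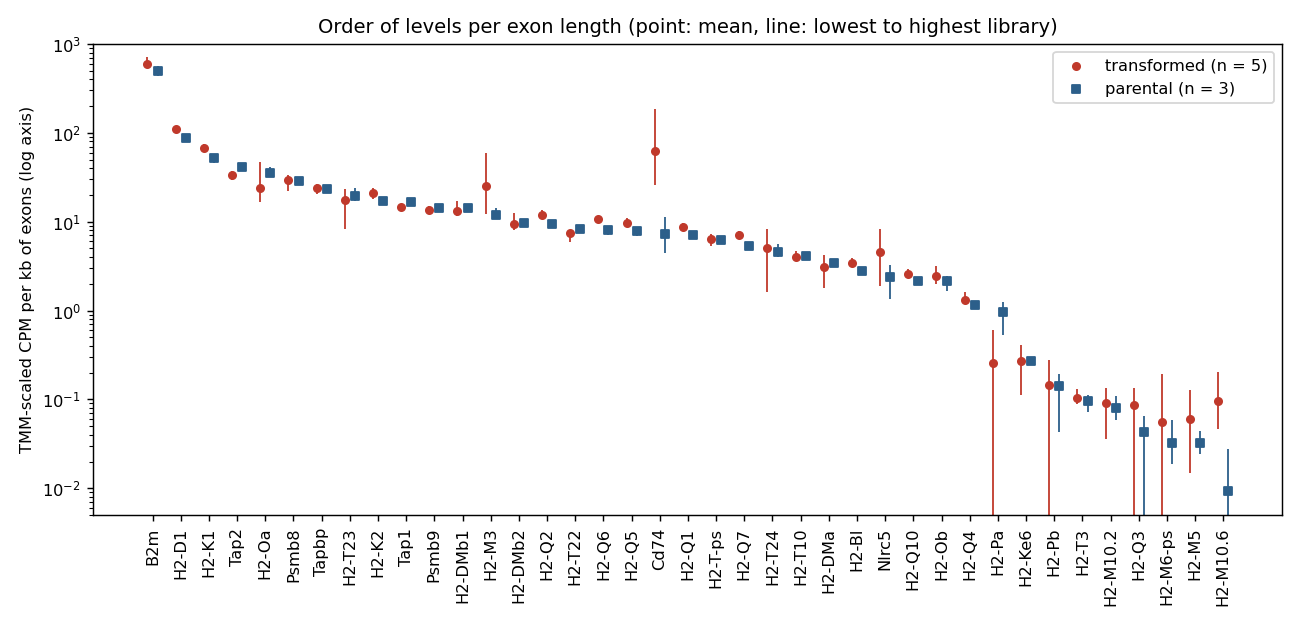
TMM-scaled CPM per kb of annotated exons (vertical axis, log scale) of the members with the highest levels, ordered by the parental mean, in transformed (circles, n = 5) and parental cells (squares, n = 3), with lines from the lowest to the highest library that run to the lower edge where a library is at 0. B2m leads in both groups, at 595 CPM per kb in transformed and 493 CPM per kb in parental cells, and Cd74 is at 62.0 CPM per kb in transformed and 7.26 CPM per kb in parental cells.

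Genes outside the members that act in the same routes were counted from 7 lists, with no test of a list as a whole, and their calls stand against the background of 3.01%. Of 12 genes of class I assembly in the endoplasmic reticulum, 1 was higher and 1 lower, and the median log2 fold change was 0.24. Calr, calreticulin, a chaperone that holds class I heavy chains with B2m for loading, fell to 1063, 1281, 1155, 1023 and 1332 CPM in transformed cells, against 1972, 2251 and 2685 CPM in parental cells. The groups did not overlap (log2 fold change -0.98 with SE 0.12, edgeR adjusted p = 0.0105). Erap1, the aminopeptidase that trims peptides for class I, rose to 44.8, 54.5, 49.8, 53.5 and 53.0 CPM in transformed cells, against 34.3, 33.8 and 37.1 CPM in parental cells (log2 fold change 0.54 with SE 0.10, edgeR adjusted p = 0.0281).

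Of 12 proteasome genes 1 was higher and 0 lower, with a median of 0.18. That was Psme3, the gamma subunit of the nuclear 11S activator, at 324 to 409 CPM in transformed cells and 219 to 303 CPM in parental cells (log2 fold change 0.59 with SE 0.13, edgeR adjusted p = 0.0456). Psmb10, the remaining catalytic immunoproteasome subunit, had 0.19 (edgeR adjusted p = 0.566). Of 12 genes of class II processing and turnover 8 were tested and 0 passed, with a median of -0.027. The smallest p was that of Ctss, cathepsin S, which cuts the invariant chain. Ctss had 1.74, 14.3, 16.8, 40.0 and 17.7 CPM in transformed cells, against 0.899, 1.30 and 2.17 CPM in parental cells. Transformed 4 was at the parental level and the other 4 were far above it (log2 fold change 3.64 with SE 0.89, edgeR adjusted p = 0.0654).

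Of the 10 factors that bind MHC promoters 9 were tested and 0 passed, the smallest p being that of Rfx5, a subunit of the X box complex (log2 fold change -0.35, edgeR adjusted p = 0.100). Of 17 interferon and NF-kB inputs 16 were tested, 1 was higher and 0 were lower, with a median of -0.064. Nfkb1, which encodes p105 and the p50 subunit that binds sites such as GGGGATTCC, rose to 545, 469, 522, 702 and 539 CPM in transformed cells, against 383, 382 and 339 CPM in parental cells (log2 fold change 0.60 with SE 0.13, edgeR adjusted p = 0.0482). Rela had -0.28, Relb 0.80 and Rel 0.70, and none of the 3 passed. Whether NF-kB has a part in the class I values was not tested. The interferon gamma receptor chain Ifngr1 had a log2 fold change of -0.83 (edgeR adjusted p = 0.0572) and Irf1 one of -0.069.

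Interferon-stimulated genes were read beside the class I values. Of 20 such genes 17 were tested, 0 were higher and 1 was lower, although 16 of the 17 log2 fold changes were positive, with a median of 0.85. The lower gene was Ifit2 (log2 fold change -0.51, edgeR adjusted p = 0.0474). Their summed level was 157, 169, 262, 260 and 182 CPM in transformed cells, against 182, 137 and 144 CPM in parental cells, and the groups overlapped. Transformed 6 and 7 were the highest and transformed 4 the lowest transformed library. For H2-K1, transformed 7 was the highest and transformed 4 the lowest transformed library, with transformed 6 beside transformed 5 and 8. The part of interferon signalling in the class I values was not tested.

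Of 14 MHC-like genes outside the H2 symbols and natural killer cell ligands 6 were tested, 1 was higher and 0 were lower. Hfe, a class I-like regulator of iron uptake that also pairs with B2m, rose to 0.768, 1.51, 2.51, 2.80 and 2.41 CPM in transformed cells, against 0.508, 0.140 and 0.460 CPM in parental cells (log2 fold change 2.42 with SE 0.53, edgeR adjusted p = 0.0456). Mr1, which presents vitamin B metabolites, had -0.48 (edgeR adjusted p = 0.106). Of 8 co-stimulation and inhibition genes 6 were tested and 0 passed, the smallest p being that of Tnfsf4 (log2 fold change -0.59, edgeR adjusted p = 0.126). Cd274, which encodes PD-L1, was at 88.4 to 234 CPM in transformed cells and 84.3 to 126 CPM in parental cells, highest in transformed 4.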

How the data were processed

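The authors deposited raw read counts per Ensembl gene, not normalised, for 8 libraries. Per the labels, Trizol RNA went into libraries with Illumina's TruSeq kit. Tools named in the submitters' processing notes are featureCounts 1.5.3 and STAR 2.5.3a, with the builds GRCm38.p5 and mm10. The strand setting and the handling of reads with several matches belong to the settings not given in the sources used here. Symbols, coordinates and exon lengths came from GENCODE M21, in which 105 gene IDs of the table had no entry and so could not be members.

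The 53465 genes were filtered with filterByExpr, scaled with TMM factors and tested in edgeR 4.0.16 (R 4.3.3) with a robust, 2-sided quasi-likelihood F test of the 5 transformed against the 3 parental libraries, with Benjamini-Hochberg adjustment over the 17733 tested genes and a threshold of 0.05. The common biological coefficient of variation was 0.23. Fold changes are transformed over parental. CPM values are TMM-scaled, and ± is the SD. Alternatives were DESeq2 1.42.0, limma-voom (limma 3.58.1), RLE and upper-quartile factors, no filter, CPM of at least 1 in 3 libraries, a lane term, either lane by itself and each library left out. The functions were tested on simulated data.

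Members and lists were chosen with earlier results of these data known. All members were named by role, with per-library values for H2-K1, H2-D1, B2m, the peptide supply genes, Nlrc5, Ciita, Cd74, H2-Aa, H2-Ab1, H2-Eb1, H2-DMa and the 3 members with the smallest p, and others were chosen after their values were seen. From the lists, every called gene and, in a list without a call, the gene with the smallest p were named, with others chosen after their values were seen. Relatedness between genes was measured as shared 50-base stretches of GENCODE transcripts in place of the protein identity that was planned. Promoter windows came from RefSeq (GRCm38.p6). Total counts of 36122062 to 50305573 set the precision, and floors of 3 counts cover counting error only.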

Additional observations from a re-analysis of the deposited data

Results flagged for a closer look

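In 6 members a transformed library stood apart from the other 4, its gap to the nearest being more than 0.71 of the range of the 5 values. Such a gap arises by chance in about 1 in 20 groups of 5, and 34 members were examined, which share libraries. The share of all tested genes with such a gap is not given here. The 6 flags are therefore not read as particular to these members. Transformed 7 was the high library for Cd74 (314 CPM, the nearest transformed library at 63.3 CPM), H2-M3 (86.0 CPM, nearest 30.7 CPM), H2-Bl (6.48 CPM, nearest 5.74 CPM) and H2-Q6 (24.2 CPM, nearest 22 CPM). Transformed 4 was the high library for H2-Oa (66.1 CPM, nearest 28.8 CPM) and H2-DMb2 (21.7 CPM, nearest 16.2 CPM).

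Transformed 7, which also had the lowest total count, was the highest of the 5 transformed libraries in 21 of the 34 members (61.8%), against 31.9% of all tested genes, and the lowest in 7 (20.6%), against 32.4%. Transformed 4 was the lowest in 13 members (38.2%), against 26.3% of all tested genes, and the highest in 6 (17.6%), against 30.2%.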

How the results depend on the processing

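The count of members called higher, 0 with all libraries in edgeR, was 7 in DESeq2 and 3 within lane 6, and 0 to 5 with each library left out in turn. The count called lower, also 0, was 1 within lane 6 and 0 to 2 with a library left out. Both stayed at 0 with RLE or upper-quartile factors, limma-voom, either low-count filter, lane as a covariate and lane 7 alone. The number of members at 1 CPM or more in all 8 libraries was 30 under each scaling and at 0.5 CPM. Of 570 alternative values for single members, 525 kept their direction and side of the threshold, 22 passed it and 23 changed sign; 23 members kept their direction throughout and 11 did not. Within lane 7 the sign turned for H2-DMb1 (0.019), H2-DMb2 (0.13), H2-T10 (0.13), H2-T3 (-0.057) and Psmb8 (-0.17). Within lane 6 it turned for H2-Ke6 (0.022), H2-T24 (-0.066), Psmb9 (0.011) and Tapbp (-0.029), and in limma-voom for H2-T24 (-0.045). With a library left out the log2 fold change ran from -0.15 to 0.023 for H2-DMb2, -0.27 to 0.16 for H2-Ke6, -0.0024 to 0.11 for H2-T-ps, -0.092 to 0.03 for H2-T10, -0.29 to 0.009 for H2-T23, -0.11 to 0.37 for H2-T24, -0.035 to 0.27 for H2-T3, -0.029 to 0.12 for Psmb8 and -0.0069 to 0.10 for Tapbp. The cause of these changes was not tested. No paired analysis was possible because the groups share no replicate numbers. Depth limits the 20 untested members, Ciita and H2-Pa, whose values rest on few counts.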

Other observations

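The balance between heavy chains and peptide transporter was compared within libraries, a ratio chosen after its values were seen. Counts of H2-K1 over counts of Tap2 were 1.35, 1.41, 1.53, 1.95 and 1.64 in transformed 4 to 8, against 0.886, 1.05 and 1.01 in parental 1 to 3. These ratios could not overlap, because every transformed library lay above every parental one for H2-K1 and below for Tap2. The separation therefore adds nothing to the values of either gene. A ratio within a library shows unequal change and not which gene changed. H2-Oa over H2-Ob counts were 4.58, 2.56, 1.77, 1.37 and 2.55 in transformed libraries, against 5.13, 3.39 and 4.55 in parental libraries, with transformed 4 at the parental level. Cd74 over H2-DMa counts were 3.09, 3.72, 5.19, 51.0 and 6.27 in transformed libraries, against 1.63, 0.86 and 0.624 in parental libraries.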
